A study of Homo sapiens with 6 samples.

Results

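The cyclins and kinases that drive human cells out of G1, with their substrate RB1 and the transcription factor E2F1, were followed through the knockdown of EWSR1::FLI1 in Ewing sarcoma cells. The 10 genes were chosen by name from the 26364 gene symbols of the expression table: the D-type cyclins CCND1, CCND2 and CCND3, the E-type cyclins CCNE1 and CCNE2, the kinases CDK2, CDK4 and CDK6, and RB1 and E2F1. The rule of choice uses names and no measured value, although it was written with earlier results of these data known. All 10 were expressed highly enough to be tested. Upon EWSR1::FLI1 knockdown, CCND1 and E2F1 fell, CDK6 rose, and the other 7 genes did not pass the limit used here.

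RNAseq was performed on A673/TR/shEF cells, a derivative of the Ewing sarcoma cell line A673 that carries a tetracycline repressor and a doxycycline-inducible shRNA directed at the EWSR1::FLI1 chimeric mRNA. EWSR1::FLI1 is the fusion transcription factor that drives this tumour. The 3 EWSR1::FLI1-high libraries came from these engineered cells left untreated, and the 3 EWSR1::FLI1-low libraries from the same cells given doxycycline at 1 µg/mL for 72 h, so that the shRNA was expressed. Both groups carry the repressor and the inducible shRNA and were grown under blasticidin and zeocin selection. No group received doxycycline without the shRNA, and the effects of the drug and of the shRNA cannot be told apart in these libraries. The labels number the samples as experiments while the design text calls them clones, and p-values therefore measure only the spread between these samples.

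Expression is given as FPKM, the fragments on a gene corrected for transcript length and library size, which the authors had scaled between libraries. The number of reads behind each value could be recovered, and the libraries held between 6980361 and 16658933 reads on genes, most of all in EWSR1::FLI1-low replicate 3. FLI1, whose 3' part is in the fusion mRNA, had 11.3, 12.7 and 14.2 FPKM in the EWSR1::FLI1-high libraries and 2.91, 4.29 and 3.68 FPKM in the EWSR1::FLI1-low libraries, and it fell (log2 fold change -1.57, limma adjusted p = 6.76e-04). Of 10 markers of Ewing sarcoma cells examined, 9 had reads in every library and CCK had 0 in EWSR1::FLI1-low replicate 2, and 8 of the 10 fell, against 3.37% of all genes tested. Markers of other cell types (8 blood, vessel, epithelial and liver genes) summed to 1.72 to 2.96 FPKM in the EWSR1::FLI1-high libraries and to 2.35 to 4.02 FPKM in the EWSR1::FLI1-low libraries, and only 2 of the 8 reached the minimum mean of 0.5 FPKM needed for a test.

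D-type cyclins are made in response to growth signals. They bind and activate CDK4 or CDK6, which begin the phosphorylation of RB1, a pocket protein that otherwise holds E2F transcription factors silent at their promoters. Released E2F1 and its relatives then switch on the genes of DNA replication, the E-type cyclins among them, and cyclin E with CDK2 completes the phosphorylation of RB1 and carries the cell into S phase. In Ewing sarcoma, CCND1 is known as a gene with high expression under the fusion, and CDK4 and CDK6 inhibitors have been studied against this tumour.

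Promoter windows from RefSeq (GRCh38.p14), each from 250 bases before to 50 bases after an annotated start, were found for 6 of the 10 genes, 9 windows in all. CCND1, CCND2, CCNE2 and CDK2 had no entry. Both strands of each window were searched for TTTCGCG and TTTGGCG, which are forms of the E2F motif, for GGAAGGAA, a pair of the GGAA repeats bound by EWSR1::FLI1, and for CCGGAAG, a form of the ETS motif. The promoters of E2F1 and CDK6 are shown, as these genes had the largest fall and rise among the genes with a window. The E2F1 window is chr20:33686336-33686635 on the minus strand, and the CDK6 windows are chr7:92836524-92836823 (CDK6 start 1) and chr7:92833910-92834209 (CDK6 start 2), both on the minus strand. Each is written 5' to 3' with the E2F motifs in capitals.
E2F1: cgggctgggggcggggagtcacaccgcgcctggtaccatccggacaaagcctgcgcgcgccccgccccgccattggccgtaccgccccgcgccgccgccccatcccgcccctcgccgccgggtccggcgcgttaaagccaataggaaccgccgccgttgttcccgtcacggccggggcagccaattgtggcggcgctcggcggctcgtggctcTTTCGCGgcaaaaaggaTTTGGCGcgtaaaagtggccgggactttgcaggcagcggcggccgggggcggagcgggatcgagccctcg
CDK6 start 1: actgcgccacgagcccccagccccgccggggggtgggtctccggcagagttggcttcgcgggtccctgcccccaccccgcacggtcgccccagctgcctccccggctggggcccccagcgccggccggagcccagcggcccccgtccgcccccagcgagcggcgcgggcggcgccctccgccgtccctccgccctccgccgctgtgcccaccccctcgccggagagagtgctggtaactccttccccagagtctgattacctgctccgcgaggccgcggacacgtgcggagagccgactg
CDK6 start 2: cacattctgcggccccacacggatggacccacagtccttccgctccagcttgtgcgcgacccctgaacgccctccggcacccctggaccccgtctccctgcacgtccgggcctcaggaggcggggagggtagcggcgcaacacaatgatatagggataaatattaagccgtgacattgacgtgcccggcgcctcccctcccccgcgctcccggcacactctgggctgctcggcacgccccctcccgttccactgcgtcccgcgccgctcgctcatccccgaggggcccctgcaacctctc
The E2F1 window held TTTCGCG from base -37 and TTTGGCG from base -20 relative to the start. Of the 35116 promoter windows of the same length in the table, 1.32% held TTTCGCG, 1.92% held TTTGGCG, 3.19% held at least 1 of them and 0.0456% held both. No match to any of the 4 motifs was found in either CDK6 window, in the CCNE1 or CDK4 window, or in the RB1 window, whose entry is an alternative start. CCGGAAG was found in 1 of the 3 CCND3 windows, from base -166, and in 10.3% of all windows. GGAAGGAA was found in 3.67% of all windows and in none of the 9. A match describes these letters and is not a measured binding site.

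The genes lie on 8 chromosomes of the GRCh37 build, with ends taken from GENCODE v44 lifted to that build. CCND1 (ENSG00000110092) occupies chr11:69455924-69469242, CCND2 (ENSG00000118971) chr12:4378937-4414519 and CCND3 (ENSG00000112576) chr6:41902672-42018095. CCNE1 (ENSG00000105173) is found at chr19:30302898-30315219 and CCNE2 (ENSG00000175305) at chr8:95891998-95908906. The kinase genes are CDK2 (ENSG00000123374) at chr12:56360565-56366573, CDK4 (ENSG00000135446) at chr12:58141510-58149796 and CDK6 (ENSG00000105810) at chr7:92234235-92465887. RB1 (ENSG00000139687) spans chr13:48877880-49173572 and E2F1 (ENSG00000101412) chr20:32263283-32274191. CCND1, CCND2, CCNE1, CDK2 and RB1 are on the plus strand and the other 5 genes on the minus strand. The table holds 1 value per gene and none per exon, over genes that range from 5 exons in the canonical transcript of each D-type cyclin to 27 in that of RB1.

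Upon EWSR1::FLI1 knockdown, 1 of the 10 genes rose (CDK6) and 2 fell (CCND1 and E2F1) at an adjusted p under 0.01, the p limit of the study, used here without a limit on the fold. The test was limma on log2(FPKM + 1). Its p values were adjusted by Benjamini and Hochberg over the 15504 genes that had a mean of at least 0.5 FPKM, and log2 fold changes are on this scale, which understates the change of low genes, except those of limma-voom and of an alternative pseudocount or scaling. Of all genes tested, 7.88% passed the limit, 4.51% as higher and 3.37% as lower, so that 3 calls among 10 genes compare with a background of 7.88%. At a limit of 0.05, 1 gene was higher and 4 were lower (CCND2 and CDK2 besides), against 19.8% of all genes called in either direction. The median log2 fold change was -0.60 over the 10 genes and -0.05 over all genes tested. All EWSR1::FLI1-low libraries were below all EWSR1::FLI1-high libraries for CCND1, CCND2, CCNE2, CDK2 and E2F1, 5 of 10, against 23.6% of all genes tested. The reverse held for CDK6 alone, against 17.5% of all genes. The libraries are bulk cultures, in which fewer cells passing through G1 and S and less RNA per cell cannot be told apart.

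**Figure D1:**
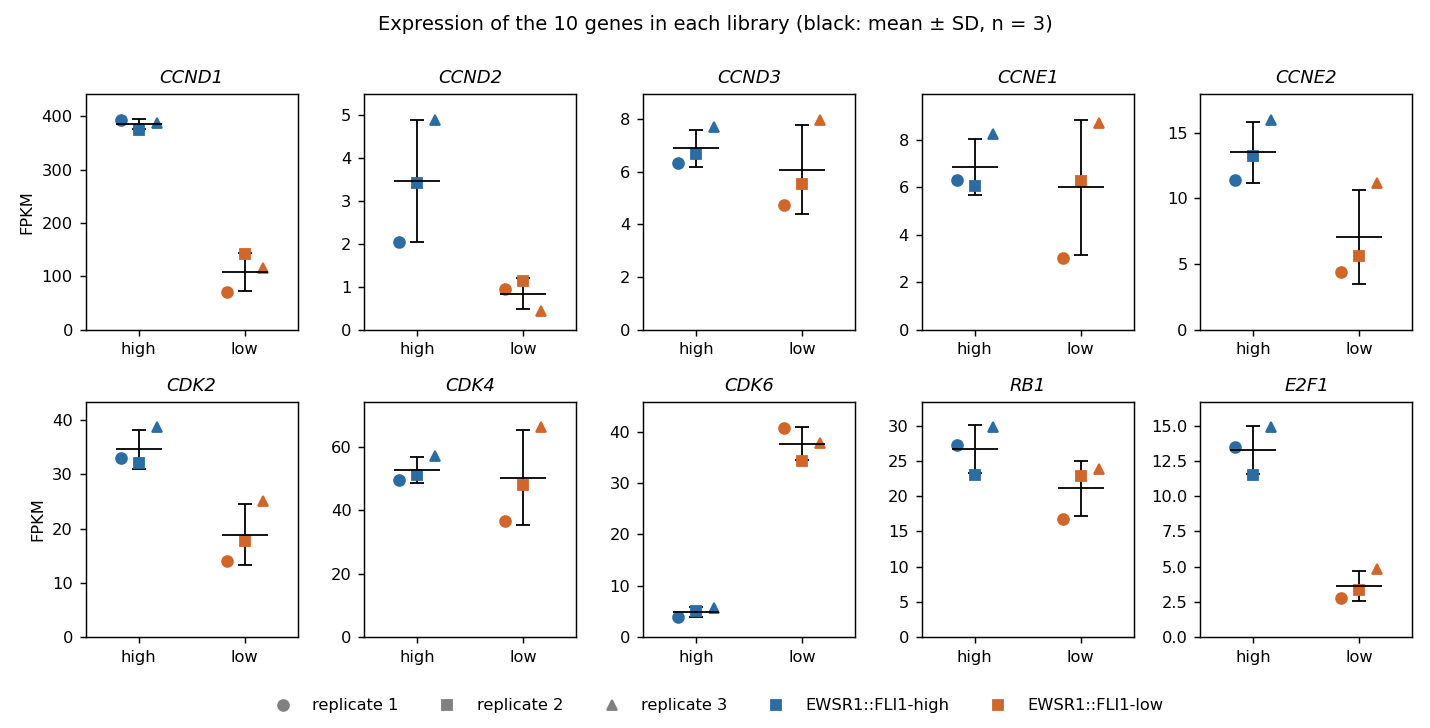
FPKM of each of the 10 genes in the 3 EWSR1::FLI1-high (blue) and 3 EWSR1::FLI1-low (orange) libraries, with a panel and a linear axis from 0 for each gene. Symbols mark the replicate, and black lines the mean ± SD. The groups are separate for CCND1, CCND2, CCNE2, CDK2, CDK6 and E2F1, and only for CDK6 is the EWSR1::FLI1-low group the higher one.

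CCND1, which encodes cyclin D1, was the D-type cyclin of these cells by level. In order of the replicate number, as in all lists that follow, it had 394, 375 and 387 FPKM in the EWSR1::FLI1-high libraries and 70.8, 141 and 116 FPKM in the EWSR1::FLI1-low libraries. The EWSR1::FLI1-high libraries lay close to each other, while the EWSR1::FLI1-low libraries were spread over a wider range and all well below them. The mean went from 385 ± 9.41 FPKM (SD, n = 3) to 109 ± 35.6 FPKM (SD, n = 3), 71.7% lower. This was a log2 fold change of -1.87 (SE 0.24, 95% interval -2.42 to -1.31, limma adjusted p = 0.00123), and 95 of the tested genes fell further. Between 2699 and 17740 reads lay behind these values. Without EWSR1::FLI1-high replicate 2 the log2 fold change was -1.88 with an adjusted p of 0.0112, just outside the limit. Even after the fall, CCND1 stood above 97.0% of the tested genes in level, against 99.7% before it.

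CCND2, which encodes cyclin D2, was the least abundant of the 10 genes in both groups. Its FPKM was 2.05, 3.42 and 4.89 in the EWSR1::FLI1-high libraries and 0.948, 1.14 and 0.433 in the EWSR1::FLI1-low libraries, on 44 to 247 reads per library. The groups did not overlap, and the EWSR1::FLI1-high libraries were spread widely. The log2 fold change was -1.24 (SE 0.26, 95% interval -1.84 to -0.65), with a limma adjusted p of 0.0122 that missed the limit. Without EWSR1::FLI1-high replicate 1 it passed (-1.49, adjusted p = 0.00650). On the recovered reads, limma-voom gave a log2 fold change of -2.13 with an adjusted p of 0.00280. The antisense gene CCND2-AS1 overlaps CCND2 on the opposite strand and had 10 or fewer reads in each library. Whether the authors' counting used the strand was not given in the sources used here, so reads of the 2 genes cannot be told apart where they overlap.

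CCND3, which encodes cyclin D3, had 6.33, 6.67 and 7.68 FPKM in the EWSR1::FLI1-high libraries and 4.73, 5.52 and 7.98 FPKM in the EWSR1::FLI1-low libraries. The groups overlapped, and EWSR1::FLI1-low replicate 3 had the highest value of all 6. Its log2 fold change was -0.18 (SE 0.20), and its 95% interval of -0.64 to 0.28 leaves room for a fall or a small rise (limma adjusted p = 0.575). Within a library, the log2 ratio of CCND1 to CCND3 went from 5.81 ± 0.15 to 4.15 ± 0.46 (SD, n = 3 each), with no overlap between the groups. The exact two-sided permutation test gave p = 0.1, the smallest that 3 against 3 libraries allow, for this ratio. CCND1 FPKM was 62.3, 56.3 and 50.3 times that of CCND3 in the EWSR1::FLI1-high libraries and 15.0, 25.6 and 14.5 times that of CCND3 in the EWSR1::FLI1-low libraries.

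As a share of the summed FPKM of the 3 D-type cyclins, CCND1 made up 97.9%, 97.4% and 96.9% in the EWSR1::FLI1-high libraries and 92.6%, 95.5% and 93.2% in the EWSR1::FLI1-low libraries. The difference of the means was -3.62 percentage points (exact two-sided permutation test, p = 0.1). The share of CCND3 was 1.74 ± 0.176% and 5.45 ± 1.49% (SD, n = 3 each). The log2 ratio of CCND1 to CCND2 was 6.89 ± 0.65 and 7.08 ± 0.93 (SD, n = 3 each), a difference of 0.19 that was within the spread of the libraries (exact two-sided permutation test, p = 0.800). Its sign turned when EWSR1::FLI1-high replicate 3 (-0.11) or EWSR1::FLI1-low replicate 3 (-0.30) was left out. Of the 5 ratios that were planned, 4 reached the smallest p of the exact permutation test, which cannot pass a limit of 0.05.

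CDK6, a kinase partner of the D-type cyclins, had the largest change of the 10 genes. Its FPKM was 3.90, 5.19 and 5.67 in the EWSR1::FLI1-high libraries and 40.8, 34.4 and 37.9 in the EWSR1::FLI1-low libraries. Every EWSR1::FLI1-low library was several times above every EWSR1::FLI1-high library, and the spread within each group was small beside the gap. The means were 4.92 ± 0.920 and 37.7 ± 3.21 FPKM (SD, n = 3 each), a 7.66-fold increase. On the log2 scale the change was 2.72 (SE 0.19, 95% interval 2.29 to 3.14, limma adjusted p = 6.97e-05), and 112 of the tested genes rose further. Reads numbered 481, 487 and 517 in the EWSR1::FLI1-high libraries and 4264, 3314 and 6950 in the EWSR1::FLI1-low libraries. CDK6 went from above 45.6% to above 86.7% of the tested genes in level. It passed the limit under all 16 alternatives, with log2 fold changes of 2.59 to 2.95 and adjusted p values of at most 0.00149.

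CDK4, the other kinase partner of the D-type cyclins, had 49.4, 51.2 and 57.1 FPKM in the EWSR1::FLI1-high libraries and 36.6, 48.1 and 66.2 FPKM in the EWSR1::FLI1-low libraries. The EWSR1::FLI1-low libraries held both the lowest and the highest value of all 6. The log2 fold change was -0.10 (SE 0.23, 95% interval -0.63 to 0.43, limma adjusted p = 0.805). Its sign was not stable, as it was 0.10 after quantile normalization and without EWSR1::FLI1-low replicate 1. TSPAN31, which overlaps CDK4 on the opposite strand, was measured at 4.67 to 7.11 FPKM over the 6 libraries.

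The make-up of the kinase pair did not overlap between the groups. CDK4 FPKM was 12.7, 9.86 and 10.1 times that of CDK6 in the EWSR1::FLI1-high libraries and 0.897, 1.40 and 1.74 times that of CDK6 in the EWSR1::FLI1-low libraries. In EWSR1::FLI1-low replicate 1, CDK6 was the more abundant of the pair. The log2 ratio went from 3.43 ± 0.20 to 0.38 ± 0.49 (SD, n = 3 each; exact two-sided permutation test, p = 0.1, the smallest possible). CDK6 accounted for 7.31%, 9.21% and 9.03% of the summed FPKM of CDK4 and CDK6 in the EWSR1::FLI1-high libraries and for 52.7%, 41.7% and 36.4% in the EWSR1::FLI1-low libraries.

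Summed over its members, D-type cyclin RNA was lower and CDK4 and CDK6 RNA higher in every EWSR1::FLI1-low library than in any EWSR1::FLI1-high library. Summed D-type cyclin FPKM was 402, 385 and 399 in the EWSR1::FLI1-high libraries and 76.4, 148 and 124 in the EWSR1::FLI1-low libraries. Summed CDK4 and CDK6 FPKM was 53.3, 56.4 and 62.8 in the EWSR1::FLI1-high libraries and 77.3, 82.5 and 104 in the EWSR1::FLI1-low libraries. Cyclin FPKM per kinase FPKM was thus 7.55, 6.84 and 6.35 without doxycycline and 0.989, 1.79 and 1.19 with it, with means of 6.91 ± 0.603 and 1.32 ± 0.417 (SD, n = 3 each). The exact two-sided permutation test gave p = 0.1, the smallest possible, for each of the sums and for their ratio. These sums were among 11 ratios and sums formed after the values had been seen. They are sums of RNA levels and do not measure protein or the amount of complex.

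**Figure D2:**
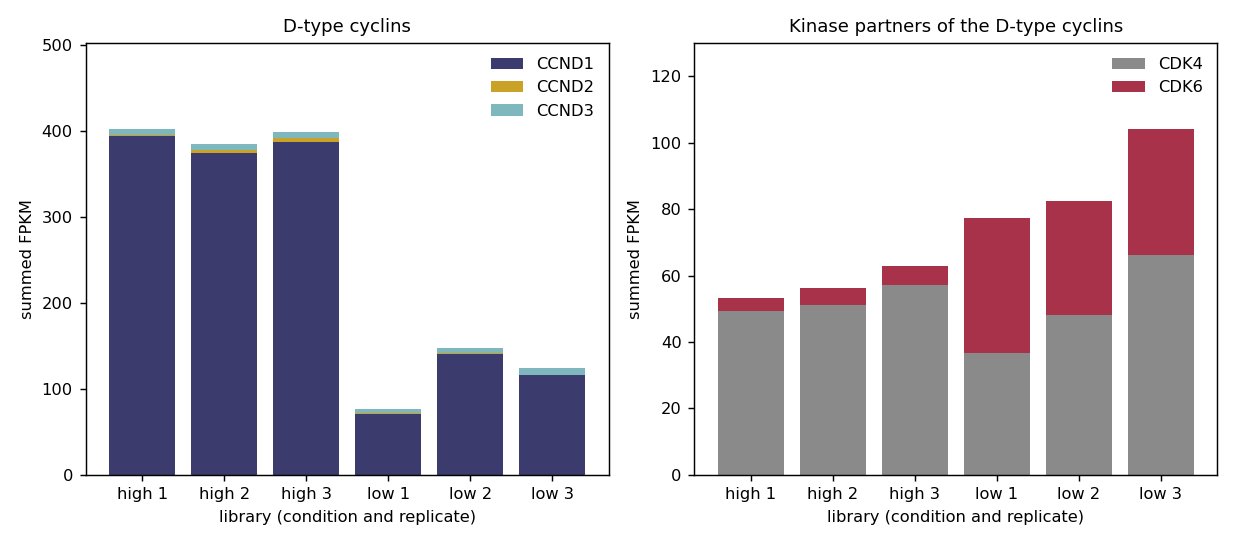
Summed FPKM per library of the D-type cyclins (left) and of their kinase partners (right), stacked by gene on linear axes from 0. CCND1 makes up nearly all of each cyclin bar, at 92.6% or more, and the CDK6 part of the kinase bars goes from 7.31% to 9.21% in the EWSR1::FLI1-high libraries to 36.4% to 52.7% in the EWSR1::FLI1-low libraries.

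RB1, the pocket protein that these kinases phosphorylate, had 27.3, 23.0 and 29.8 FPKM in the EWSR1::FLI1-high libraries and 16.7, 22.8 and 23.9 FPKM in the EWSR1::FLI1-low libraries. The groups overlapped, as EWSR1::FLI1-low replicate 3 was above EWSR1::FLI1-high replicate 2. For RB1 the log2 fold change was -0.33 (SE 0.20, 95% interval -0.80 to 0.13, limma adjusted p = 0.291). LPAR6 and RCBTB2 overlap RB1 and were measured at 2.18 to 6.95 FPKM. Each had its 3 highest values in the EWSR1::FLI1-low libraries, as did 17.5% of all genes tested. Neither passed the limit, with log2 fold changes of 0.23 for LPAR6 (limma adjusted p = 0.341) and 0.78 for RCBTB2 (limma adjusted p = 0.0396). RB1 did not pass it either.

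E2F1, the activator that RB1 restrains, had 13.5, 11.5 and 14.9 FPKM in the EWSR1::FLI1-high libraries and 2.79, 3.34 and 4.82 FPKM in the EWSR1::FLI1-low libraries. The groups were well apart, with the highest EWSR1::FLI1-low library below the lowest EWSR1::FLI1-high library. The means were 13.3 ± 1.70 and 3.65 ± 1.05 FPKM (SD, n = 3 each), 3.64-fold higher in the EWSR1::FLI1-high group. The log2 fold change was -1.64 (SE 0.21, 95% interval -2.10 to -1.17, limma adjusted p = 9.99e-04), on 67 to 382 reads per library. E2F1 fell past the limit under all 16 alternatives, with log2 fold changes of -1.87 to -1.50 and adjusted p values of at most 0.00801. Its promoter is the window printed above that holds both forms of the E2F motif.

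CDK2, the kinase that cyclin E activates, had 33.0, 32.1 and 38.7 FPKM in the EWSR1::FLI1-high libraries and 14.0, 17.7 and 25.0 FPKM in the EWSR1::FLI1-low libraries. No library of one group reached the other. For CDK2 the log2 fold change was -0.87 (SE 0.23, 95% interval -1.39 to -0.35), but the limma adjusted p of 0.0296 missed the limit. Median-ratio scaling gave -0.79 (adjusted p = 0.00931) and quantile normalization -0.73 (adjusted p = 0.00516), both inside the limit, as was the value without EWSR1::FLI1-low replicate 3 (-1.08, adjusted p = 0.00969). PMEL, which overlaps CDK2, had 4 to 17 reads per library.

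CCNE2, which encodes cyclin E2, had 11.4, 13.2 and 16 FPKM in the EWSR1::FLI1-high libraries and 4.37, 5.64 and 11.2 FPKM in the EWSR1::FLI1-low libraries. The groups came close without overlapping, EWSR1::FLI1-low replicate 3 standing far above the other 2 of its group. For CCNE2 the log2 fold change was -0.93 (SE 0.30, 95% interval -1.60 to -0.26, limma adjusted p = 0.0574). Leaving out that library gave -1.27 and an adjusted p of 0.00821, inside the limit. INTS8, which overlaps CCNE2 on the opposite strand, had a log2 fold change of -0.69 (limma adjusted p = 0.0296), and reads of the pair cannot be told apart if strand was not used.

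CCNE1, which encodes cyclin E1, had 6.31, 6.06 and 8.22 FPKM in the EWSR1::FLI1-high libraries and 3.0, 6.26 and 8.70 FPKM in the EWSR1::FLI1-low libraries. EWSR1::FLI1-low replicate 1 lay far below the other 5 libraries, which were alike in range. The log2 fold change was -0.25 (SE 0.30, 95% interval -0.94 to 0.44, limma adjusted p = 0.604), and without that library it was 0.10. Cyclin E2 RNA exceeded cyclin E1 RNA 1.80, 2.17 and 1.94 times in the EWSR1::FLI1-high libraries and 1.46, 0.900 and 1.28 times in the EWSR1::FLI1-low libraries, in 1 of which it was therefore the lower. The log2 ratio of CCNE1 to CCNE2 was -0.98 ± 0.13 and -0.25 ± 0.36 (SD, n = 3 each; exact two-sided permutation test, p = 0.1, the smallest possible). Summed E-type cyclin FPKM per CDK2 FPKM was 0.587 ± 0.0452 and 0.665 ± 0.135 (SD, n = 3 each), which overlapped between the groups (exact two-sided permutation test, p = 0.5).

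**Figure D3:**
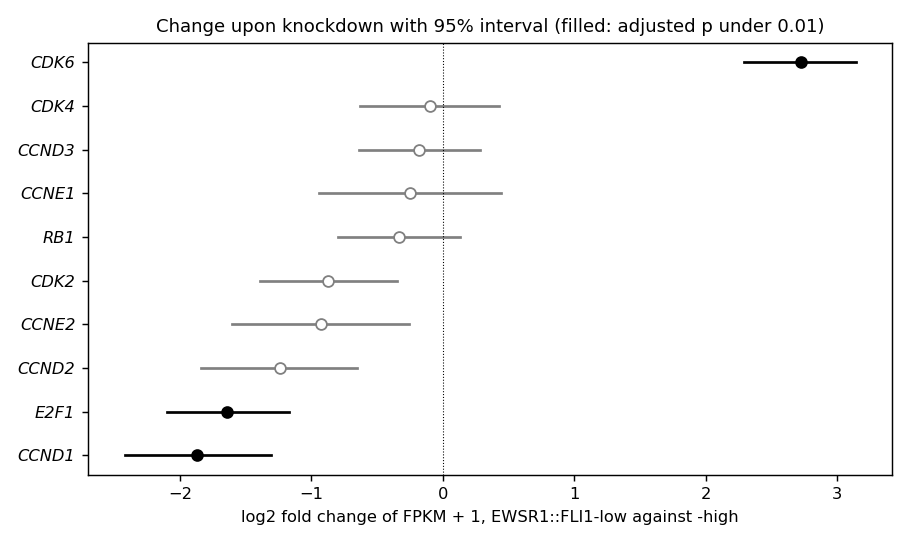
Log2 fold change of FPKM + 1 upon knockdown for the 10 genes with its 95% interval. Filled points have an adjusted p under 0.01. CDK6 at 2.72 stands alone on the right, CCND1 at -1.87 and E2F1 at -1.64 are the filled points on the left, and the intervals of CDK4, CCND3, CCNE1 and RB1 include 0.

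Ranked by mean FPKM, the EWSR1::FLI1-high order was CCND1 (385), CDK4 (52.6), CDK2 (34.6), RB1 (26.7), CCNE2 (13.5), E2F1 (13.3), CCND3 (6.89), CCNE1 (6.86), CDK6 (4.92) and CCND2 (3.45). Neighbours whose libraries overlapped there were CCNE2 with E2F1, CCND3 with CCNE1, and CDK6 with CCND2. In the EWSR1::FLI1-low group the order was CCND1 (109), CDK4 (50.3), CDK6 (37.7), RB1 (21.1), CDK2 (18.9), CCNE2 (7.06), CCND3 (6.08), CCNE1 (5.99), E2F1 (3.65) and CCND2 (0.841). Here CDK4 overlapped with CDK6, RB1 with CDK2, and the run from CCNE2 to E2F1 overlapped from each gene to the next. CDK6 moved from the ninth place to the third and E2F1 from the sixth to the ninth.

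The EWSR1::FLI1-low libraries differed among themselves over the whole set of genes tested, and not only over these 10. Summed over all genes tested, they had 252347, 335946 and 357368 FPKM. EWSR1::FLI1-low replicate 3 was the highest of its group for 7 of the 10 genes, against 48.4% of all genes tested, and replicate 1 was the lowest for 8 of the 10, against 56.4% of all genes tested. Replicate 3 was also the deepest library, and the median-ratio factors computed on the FPKM were 0.866, 0.983 and 1.07 for the EWSR1::FLI1-low libraries, against 1.01, 1 and 1.08 for the EWSR1::FLI1-high replicates. CDK6 went the other way, with replicate 1 the highest of the 3. The part of depth and scale in these differences was not tested, but CCND1 (-1.78), E2F1 (-1.56) and CDK6 (2.80) passed the limit after median-ratio scaling too.

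Around the 10 genes, 77 further genes in 5 lists were read from the same fit. Among 18 partners of RB1 and E2F1 (E2F and DP family members, the pocket proteins RBL1 and RBL2, and subunits and partners of the complexes they form), 6 fell and 0 rose, with a median log2 fold change of -0.65. Of all genes tested, 3.37% fell. At an unadjusted p under 0.05, 12 were lower, against 18.7% of all genes tested, and 0 were higher. With limma-voom on recovered reads 7 were called lower, against 5.06% of all genes, and 0 higher, while 11.2% of all genes were called in either direction. With any 1 EWSR1::FLI1-high library or EWSR1::FLI1-low replicate 2 left out, 2 fell, and with no filter on low values 3 fell. Over all genes tested, the number that fell, 522 as reported, was then 156 to 279, and 297 with no filter.

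E2F2, an activator close to E2F1, had 7.21, 5.58 and 7.58 FPKM in the EWSR1::FLI1-high libraries and 1.13, 1.2 and 1.11 FPKM in the EWSR1::FLI1-low libraries. All EWSR1::FLI1-low values were nearly equal, and the log2 fold change was -1.85 (SE 0.16, limma adjusted p = 2.12e-04). The third activator, E2F3, had a log2 fold change of -0.54 with an adjusted p of 0.0887 and was not called. Among the repressive members, E2F5 fell (-1.53, adjusted p = 0.00115) and so did E2F8 (-1.11, adjusted p = 0.00534), while E2F4 (-0.25, adjusted p = 0.476) and E2F6 (-0.64, adjusted p = 0.0512) did not pass. E2F7 had 5.81, 5.29 and 8.45 FPKM in the EWSR1::FLI1-high libraries and 2.47, 14.0 and 9.22 FPKM in the EWSR1::FLI1-low libraries, and its sign changed with the library left out. Of the pocket proteins beside RB1, RBL1 fell (-1.13, adjusted p = 0.00903) and RBL2 was not called (-0.19, adjusted p = 0.482). MYBL2, of the same list, fell (-1.76, adjusted p = 0.00366), as did LIN9 (-1.22, adjusted p = 0.00896). All adjusted p values are from limma.

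Of 20 genes that E2F factors are known to switch on at the start of S phase, 11 fell and 0 rose. Of all genes tested, 3.37% fell and 4.51% rose. For 19 of the 20, all EWSR1::FLI1-low libraries were below all EWSR1::FLI1-high libraries, against 23.6% of all genes tested. The median log2 fold change was -1.21, with a range of -1.68 to -0.57. At an adjusted p under 0.05, 18 were lower, against 9.91% of all genes tested. RRM2, a subunit of ribonucleotide reductase, fell from 107, 110 and 125 FPKM to 21.9, 32.3 and 59.7 FPKM (log2 fold change -1.68, limma adjusted p = 0.00800). The others named by the rule were ORC1, of the origin recognition complex (-1.67, adjusted p = 0.00711), CDC25A, the phosphatase that activates CDK2 (-1.65, adjusted p = 0.00538), and MCM2, of the replicative helicase (-1.44, adjusted p = 0.00654). The count of 11 moved with single libraries, as did the 522 genes called lower among all genes tested. Without any 1 of the EWSR1::FLI1-high libraries it was 0, and 156 to 200 of all genes fell. It was 1 without EWSR1::FLI1-low replicate 2 (279 of all genes) and 12 without EWSR1::FLI1-low replicate 1 (726 of all genes). Without EWSR1::FLI1-low replicate 3 it was 17 (691 of all genes). With no filter on low values it was 3 (297 of all genes). EWSR1::FLI1-low replicate 3 was the highest of its group for all 20 genes, against 48.4% of all genes tested. Replicate 1 was the lowest for 19, against 56.4%.

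Later cyclins, kinases and mitotic genes (14 genes, among them CCNB1 and CDK1) had a median log2 fold change of -1.15, close to that of the S phase genes. None passed the limit in limma, where 3.37% of all genes tested fell. At an unadjusted p under 0.05, 13 were lower, against 18.7% of all genes tested. At an adjusted p under 0.05, 12 were lower, against 9.91%, and limma-voom on recovered reads called 6 lower, against 5.06%. CCNB1, which encodes cyclin B1, had 197, 192 and 212 FPKM in the EWSR1::FLI1-high libraries and 66.8, 92.3 and 164 FPKM in the EWSR1::FLI1-low libraries. EWSR1::FLI1-low replicate 3 was the highest of its group for 13 of the 14, against 48.4% of all genes tested. Without it 12 of the 14 fell, while over all genes tested 691 fell, against 522 as reported.

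The inhibitors of these kinases showed no call in the reported test. Of 7 inhibitor genes, 5 were tested, with a median log2 fold change of -0.21. Limma called 0 higher and 0 lower, against 4.51% and 3.37% of all genes tested. Limma-voom also called 0, against 11.2% of all genes in either direction. With 5 genes tested, these counts of 0 were close to the shares over all genes. At an unadjusted p under 0.05, 1 was higher and 0 were lower, while 18.7% of all genes tested were lower. CDKN1A, which encodes p21, had 27.9, 34.7 and 31.8 FPKM in the EWSR1::FLI1-high libraries and 18.4, 64.9 and 37.1 FPKM in the EWSR1::FLI1-low libraries, so that its EWSR1::FLI1-low values lay on both sides of the EWSR1::FLI1-high range (log2 fold change 0.17, limma adjusted p = 0.794). CDKN1B, which encodes p27, was at 21.7 to 25.8 FPKM and 15.5 to 24.4 FPKM (log2 fold change -0.21, limma adjusted p = 0.524). CDKN1C, which encodes p57, was low, at 0.346, 0.325 and 0.334 FPKM and then 0.757, 0.884 and 0.765 FPKM, on 5 to 23 reads, and did not pass (log2 fold change 0.43, limma adjusted p = 0.0811). CDKN2C had a log2 fold change of -0.24 (limma adjusted p = 0.611) and CDKN2D of -0.38 (limma adjusted p = 0.216). CDKN2A, which encodes the CDK4 and CDK6 inhibitor p16, had 1 read in each of 2 libraries and 0 in the other 4, and CDKN2B had 0 reads in all 6. For CDKN2A, 3 reads would correspond to 0.0926 to 0.186 FPKM depending on the library, and a level under this was not detectable at this depth.

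Genes that activate the kinases or turn the cyclins over gave 1 call among 17 tested of 18 listed, with 0 higher, and a median log2 fold change of -0.28. Of all genes tested, 3.37% were called lower. At an unadjusted p under 0.05, 4 were lower, against 18.7% of all genes tested, and 1 was higher. Limma-voom on recovered reads called 1 lower, against 5.06% of all genes, and 0 higher. The counts of lower genes in this list were close to these shares. The gene called was SKP2, the F-box protein that marks p27 for degradation. It had 51.8, 46.3 and 56.8 FPKM in the EWSR1::FLI1-high libraries and 18.5, 8.56 and 19.6 FPKM in the EWSR1::FLI1-low libraries, with a log2 fold change of -1.75 (SE 0.29, limma adjusted p = 0.00447). No SKP2 value of one group came near the other, but the call was lost when any 1 of the EWSR1::FLI1-high libraries was left out (adjusted p up to 0.0275), after quantile normalization (adjusted p = 0.0128) and with no filter on low values (adjusted p = 0.0106).

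**Figure D4:**
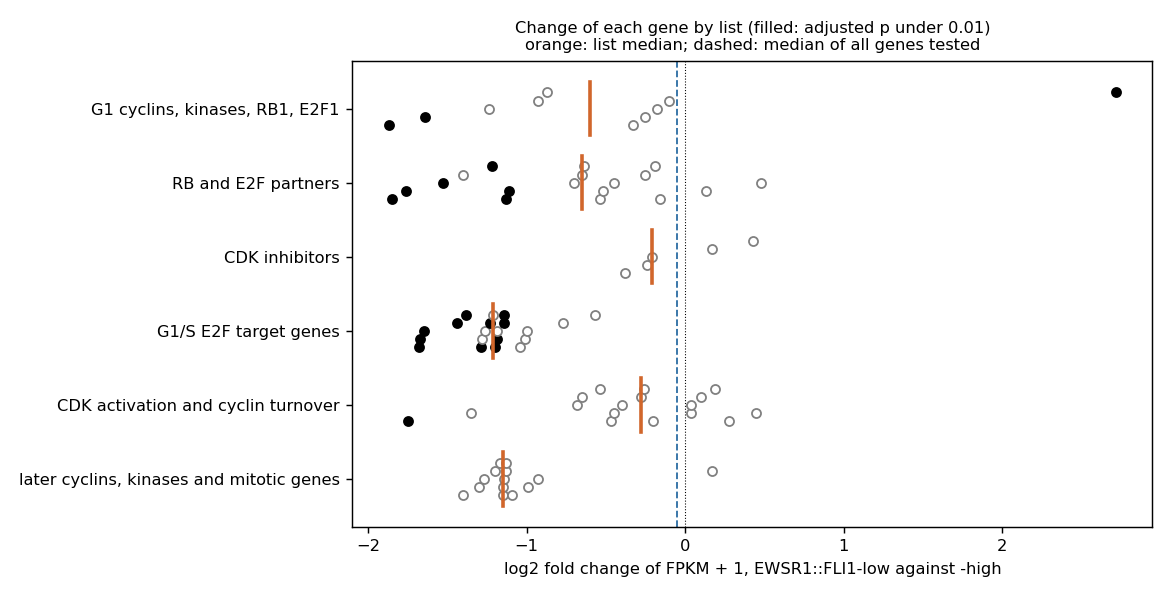
Log2 fold change of FPKM + 1 upon knockdown for each tested gene of the 10 and of the 5 lists. Filled points have an adjusted p under 0.01, orange bars are list medians and the dashed line is the median of all genes tested at -0.05. The S phase and mitotic lists lie to the left, with medians of -1.21 and -1.15, while the inhibitors lie about 0, and CDK6 at 2.72 lies apart from every other gene shown.

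The genes whose profile over the 6 libraries was most like that of CDK6, among 6356 genes with a mean of at least 10 FPKM and outside the lists, were FHL1 (Pearson r = 0.9981), RIN2 (0.9975) and FKBP9 (0.9975). For CCND1 they were ETS2 (0.9971), MYEF2 (0.9954) and SYT1 (0.9943). RIN2 had 3.11, 3.51 and 3.78 FPKM in the EWSR1::FLI1-high libraries and 21.4, 16 and 19.0 FPKM in the EWSR1::FLI1-low libraries. RIN2 and FKBP9 had the same order of the EWSR1::FLI1-low libraries as CDK6. FHL1 did not, with 15.3, 14.7 and 15.9 FPKM there and the highest value in replicate 3. ETS2, an ETS family transcription factor, had 19.9, 21.2 and 22.5 FPKM and then 3.75, 7.57 and 5.89 FPKM, with the lowest value in replicate 1 and the highest of its group in replicate 2, as for CCND1. With 2 separate groups of 3 libraries, any gene with a clear difference has a high r, and 168 genes for CDK6 and 274 for CCND1 had an r of at least 0.95. These values are a description, with no test.

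**Figure D5:**
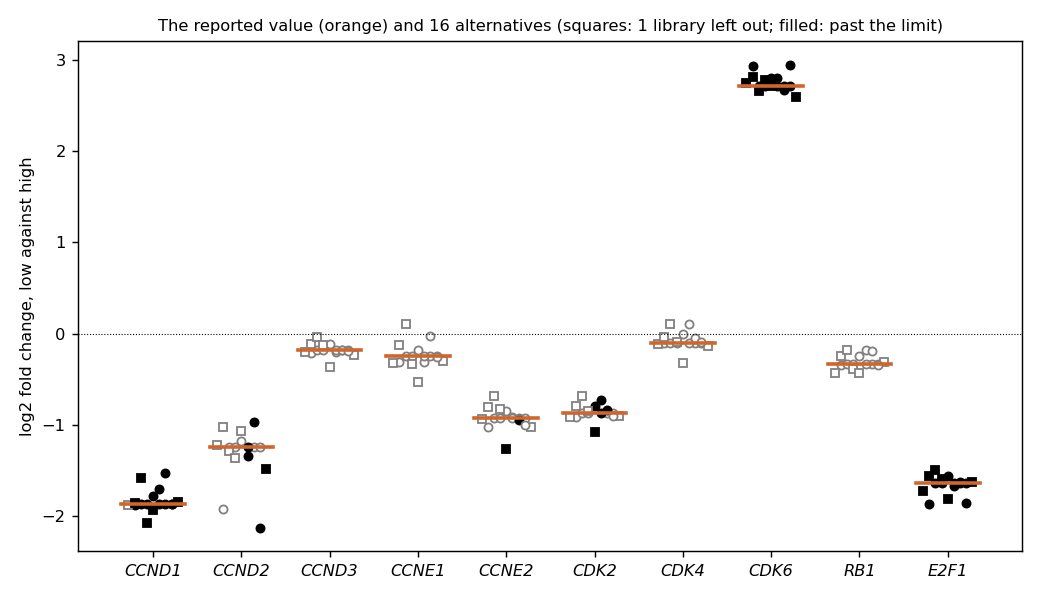
Log2 fold change upon knockdown for each of the 10 genes as reported (orange bar) and under 16 alternatives, with squares for a library left out, circles for the others and filled symbols for values past the limit. CDK6 (2.59 to 2.95) and E2F1 (-1.87 to -1.50) are filled throughout, CCND1 has 1 open square at -1.88, and CCND2, CCNE2 and CDK2 are filled under some alternatives only.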

How the data were processed

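RNAseq libraries of 3 EWSR1::FLI1-high and 3 EWSR1::FLI1-low samples were assigned to groups and replicate numbers by their labels. The libraries were made from ribosomal RNA-depleted total RNA with the ScriptSeq v2 kit. The submitters' processing notes name STAR 2.5.0b, Cufflinks 2.2.1, bedtools 2.17.0, DESeq2 1.6.3 and GRCh37, and the use of strand in counting was not given in the sources used here. The authors deposited FPKM per gene symbol and library, already scaled between libraries. The authors also deposited a comparison table, from which only the column of mean signal, which is a mean of normalized counts, was used. Its fold changes, standard errors, test statistics and p-values were not used.

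Multiplied by the ratio of that mean to the mean FPKM of the gene, the FPKM gave whole reads in each library (100% of values above 0 within 0.1 reads). Reads recovered in this way entered limma-voom as an alternative, which called 1729 genes, against 1222 in the reported test. The floor of 3 reads covers counting error only, and the 95% intervals, from limma, reflect the spread between libraries. Replicates were compared first, and no pair agreed within sampling noise. Chi-square per degree of freedom was 4.75 to 7.17 between EWSR1::FLI1-high libraries and 23.3 to 36.9 between EWSR1::FLI1-low libraries. The reported limma fit takes the variance of a gene as the same in both groups.

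Genes with a mean of at least 0.5 FPKM (15504) were tested on the log2(FPKM + 1) scale with limma 3.58.1 (R 4.3.3), using lmFit and a moderated test with a mean-variance trend, with no replicate block and Benjamini-Hochberg adjustment, at a limit of 0.01. Of the 1222 genes past it, 700 were higher and 522 lower. Ratios within a library were compared by an exact two-sided permutation test (scipy 1.17.1). Both limma fits were tested on simulated data. The 10 genes and the lists were chosen with earlier results of these data known. All 10 genes were named, and of each list every gene past the limit where there were 4 or fewer, otherwise the 4 largest changes in a direction. Every E2F, pocket protein and inhibitor gene could be named too. CCNB1 was named after its values were seen. The 3 nearest profiles were named for the largest rise and the largest fall.

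Alternatives were a pseudocount of 0.1, no filter, a minimum of 1 FPKM, quantile normalization, median-ratio scaling, no mean-variance trend, each library left out, a replicate block, a limit of 0.05, sample quality weights and limma-voom. Other tools were Python 3.11.15, pandas 2.3.3 and matplotlib 3.10.9. Isoform tables and other assays were not analysed here.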

Additional observations from a re-analysis of the deposited data

How the results depend on the processing

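Across the 16 alternatives, CDK6 and E2F1 passed the limit each time, and RB1, CCND3, CCNE1 and CDK4 never did. Without EWSR1::FLI1-high replicate 2, CCND1 missed the limit (-1.88, adjusted p = 0.0112), and its leave-one-out range was -2.08 to -1.58. The count of genes past the limit, 1222 as reported, was 753 with no filter, 1992 after quantile normalization, 3067 at a limit of 0.05 and 4745 with sample quality weights, and 444 (without EWSR1::FLI1-high replicate 2) to 2178 (without EWSR1::FLI1-low replicate 1) when a library was left out. The share of called genes that were higher was 57.3% as reported and 37.7% without EWSR1::FLI1-low replicate 3.

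CCND2 passed after quantile normalization (-1.34), at a limit of 0.05 (-1.24), with quality weights (-0.97), with limma-voom (-2.13) and without EWSR1::FLI1-high replicate 1 (-1.49), with a leave-one-out range of -1.49 to -1.02. CDK2 passed after median-ratio scaling (-0.79) and quantile normalization (-0.73), at a limit of 0.05 (-0.87), with quality weights (-0.84) and without EWSR1::FLI1-low replicate 3 (-1.08), with a leave-one-out range of -1.08 to -0.69. CCNE2 passed with quality weights (-0.95) and without EWSR1::FLI1-low replicate 3 (-1.27), with a leave-one-out range of -1.27 to -0.68. Leaving out a library gave CCNE1 values of -0.53 to 0.10 and CDK4 values of -0.32 to 0.10, and quantile normalization gave CDK4 0.10. For the log2 ratio of CCND1 to CCND2 the leave-one-out range was -0.30 to 0.62. Among inhibitors and E2F genes the sign turned with a library left out for E2F7 (-0.31 to 0.74), CDKN1A (-0.25 to 0.63) and CDKN2C (-0.50 to 0.09). The inhibitor CDKN1C passed with quality weights (0.48, limma adjusted p = 0.00813), under which 4745 genes passed. The cause of these changes was not tested.

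Whether equal replicate numbers pair the samples was not settled. Deviations from the group means correlated at 0.27, 0.09 and 0.12 for equal numbers and at -0.29 to 0.19 for unequal numbers. EWSR1::FLI1-high replicates 1 and 2 each correlated best with their own number, and replicate 3 with EWSR1::FLI1-low replicate 2 (0.19). With a replicate block 1702 genes passed, 786 of them lower in place of 522, and no call among the 10 genes changed. In that fit 17 of the 20 S phase genes fell in place of 11, and 8 of the 14 later and mitotic genes fell in place of 0.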
